A study of Homo sapiens with 18 samples.

Results

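Human neuroepithelial cells grown without added growth factor were compared between day 17 and day 10 of differentiation. 6 of the 18 expression arrays of the series made this comparison, 3 for each day, and they were grouped by their labels. The comparison itself, its marker genes and the gene lists below were chosen with earlier results of these data known. The p-values of the markers and the shares of the lists are thus descriptions and not independent tests. All cells came from H9, an established human embryonic stem (ES) cell line, and each array measured 1 pool of total RNA, numbered 1 to 3. The day 10 group is labelled primitive neural epithelium and the day 17 group definitive neural epithelium, and the series title calls the day 17 stage neural rosettes. The other 4 groups, also of 3 pools each, were undifferentiated ES cells, day 6 embryoid bodies grown in suspension, and day 10 and day 17 cells grown with basic fibroblast growth factor (bFGF). As labelled, bFGF was given from day 6, at 20 ug/ml in the day 10 cells but at 20 ng/ml in those of day 17, and this mismatch of units was not resolved. All groups come from 1 cell line, and no label says whether pools came from separate cultures, so a p-value here covers nothing beyond the spread among the pools, which may be technical.

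Neuroepithelium is the sheet of dividing precursor cells that forms the brain and spinal cord. In culture it arranges itself in rosettes around a lumen, and its cells first acquire a regional identity and then leave the cycle to become neurons. DLX1 and DLX2 are homeodomain factors of the ventral forebrain and its GABA-producing interneurons, NR2E1 (TLX) is a nuclear receptor that maintains neural stem cells of the forebrain and retina, and STMN2 is a microtubule-binding phosphoprotein of young neurons.

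Signals were linear intensities scaled to nearly the same trimmed mean on every array. The pool 2 arrays of the 4 neuroepithelial groups stood apart: their median signal over all probe sets was 48.7 to 50.8, against 25.2 to 32.7 on the other 14 arrays. Low signals were raised on them. The ratio of 3' to 5' ACTB signal, which grows as RNA degrades, was 2.27 to 2.64 on the 6 arrays of pool 2 and 1.17 to 1.75 on the others. The same ratio for GAPDH was not raised in pool 2, at 0.876 to 1.01 against 0.984 to 1.24 on the others. Both days hold 1 pool 2 array, and counts or adjusted p-values without pool 2 are given beside many, not all, of the results. The neural label was borne by the markers at both days. The eye field and neural factor PAX6 was at 1869.8 to 2585 at day 10 and 1744 to 2951 at day 17, the forebrain factor LHX2 at 3191 to 4725 and 3644 to 4413, and the neural factor SOX1 at 401 to 736 and 1144 to 1777. On the ES arrays SOX1 was at 3.19 to 22.

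Between day 10 and day 17, 403 of 19775 genes changed in untreated cells (limma, Benjamini-Hochberg adjusted p under 0.05), which is 2.04% of the genes tested. Of these, 296 genes (1.5%) rose and 107 (0.541%) fell, so that 73.4% of the changes were increases. The 3 arrays of each day did not overlap for any of the 403 genes, a pattern found for 2689 genes, or 13.6%, of all tested (7.3% with day 17 higher and 6.3% with day 17 lower). Changes are given as log2 of signal plus 16, day 17 minus day 10, a scale that understates the change of weak genes. On it, 249 genes rose and 79 fell by at least 1 unit, which is a doubling or halving, and 50 rose and 7 fell by at least 2 units. The 15 largest increases included the forebrain factors NR2E1, DLX1, DLX2, POU3F3 and EMX2, and the 15 largest decreases the early forebrain factor HESX1, the stem cell genes L1TD1 and MIR302B and the FGF target DUSP6. In bulk RNA, fewer cells of a type and less RNA per cell cannot be told apart.

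**Figure D1:**
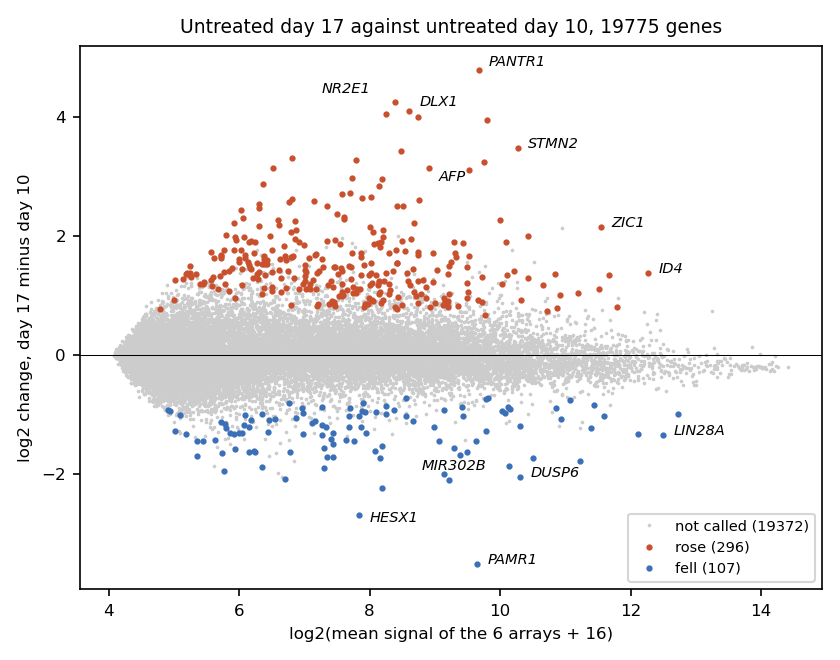
Change of each of 19775 genes between untreated day 10 and day 17 (vertical axis, log2 of signal plus 16, day 17 minus day 10) against its mean signal over the 6 arrays (horizontal axis, same scale). The 296 genes that rose (orange) reach higher than the 107 that fell (blue) reach down, from PANTR1 at 4.79 to PAMR1 at -3.52.

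Same-numbered pools deviated together across the days, though no label says that equal numbers pair the arrays, and the main test does not use the pool. The fit with the pool as a replicate block called 879 genes (4.45%), 611 rising (3.09%) and 268 falling (1.36%). It called 399 of the 403 genes again. Without the pool 2 arrays 230 genes (1.16%) were called, 183 of them among the 403, and all 403 kept their sign. Leaving out 1 array gave 212 genes without day 17 pool 1, 261 without day 17 pool 2, 268 without day 17 pool 3 and 225 without day 10 pool 3. A fit of the 6 arrays alone, with its own estimate of the spread, called 37 genes. When all probe sets of a gene were averaged, ST18, L1TD1, CLDN11, NFIB, TNC, RIMS1, L1CAM, CNTN2, GRIK3, SLC1A2, BMP7, CGA, NKD1, LGR5 and P4HA2, which are named below for their change, were not called.

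DLX1, STMN2 and NR2E1 were all much higher at day 17. DLX1 signal was 25.2, 15.7 and 36 on the day 10 arrays of pools 1 to 3 and 685, 1001 and 471 on those of day 17, a rise of 4.11 ± 0.46 (log2, SE) with an adjusted p of 1.59e-04. All 3 day 17 arrays were high and no day 10 array came near the lowest of them. NR2E1 was at 36, 18.2 and 4.33 at day 10 and 630.2, 565 and 651 at day 17, a rise of 4.25 ± 0.30 (adjusted p = 1.17e-06). Its 3 day 17 values lay close together, while the day 10 values were all low and spread widely. STMN2 was at 386, 169.6 and 92.6 at day 10, highest in pool 1, and at 2368, 2360.5 and 1947 at day 17, a rise of 3.48 ± 0.35 (adjusted p = 3.59e-05). In the earlier stages the same genes were also below every day 17 array: DLX1 was at 2.23 to 39.1 on the ES arrays and 4.67 to 16.6 at day 6, NR2E1 at 3.52 to 5.17 and 1.66 to 6.65, and STMN2 at 46.6 to 65.0 and 66.4 to 99.4.

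**Figure D2:**
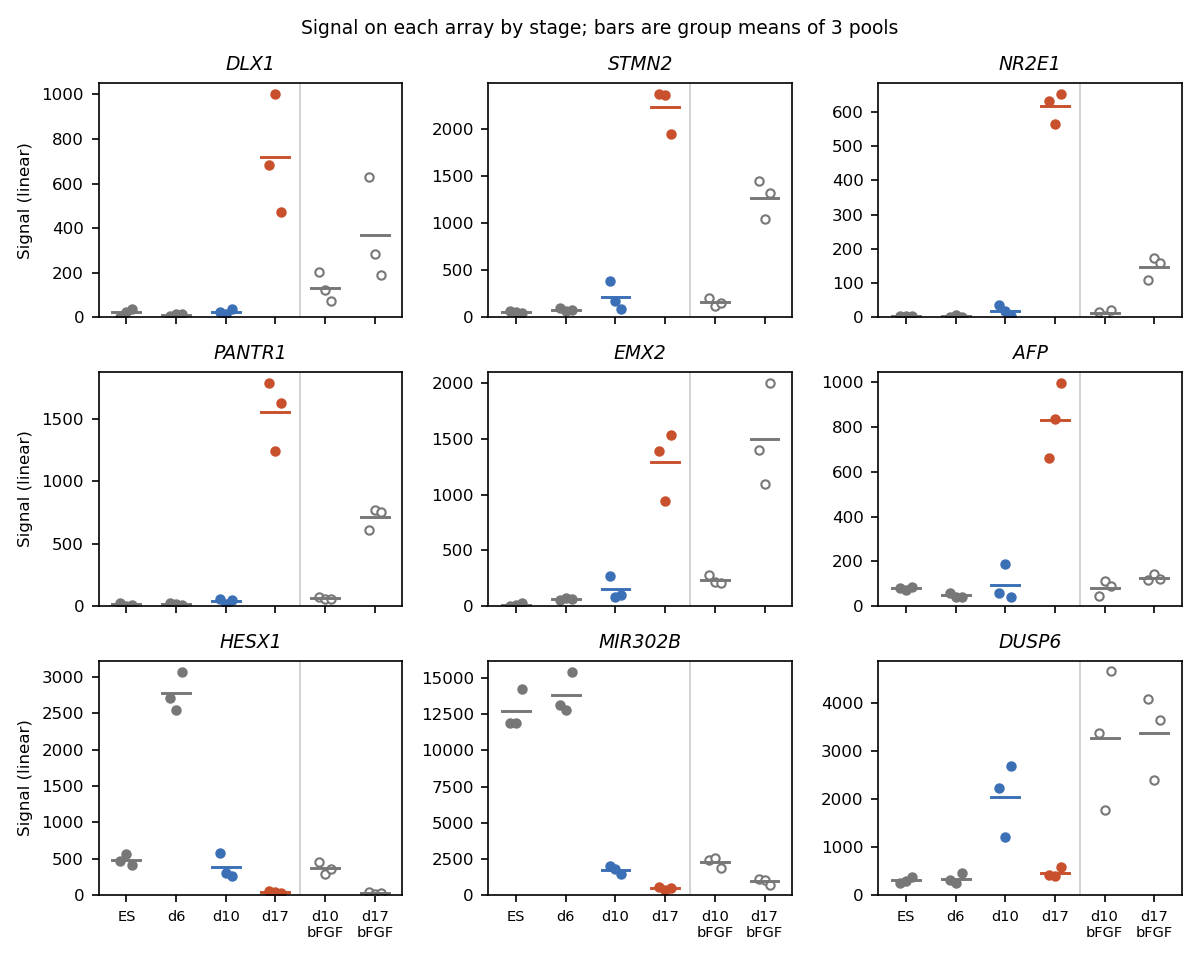
Linear signal on each array (points) and group mean (bars) for 9 genes in the 6 groups of 3 pools; filled blue is untreated day 10, filled orange untreated day 17, open grey the bFGF cells. For DLX1, STMN2, NR2E1, PANTR1, EMX2 and AFP every untreated day 17 array lay above every ES, day 6 and untreated day 10 array, while HESX1 and MIR302B had fallen from far higher day 6 levels and DUSP6 was highest in the bFGF groups.

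The gene with the largest rise was PANTR1, a long non-coding RNA transcribed divergently from the POU3F3 gene. Its signal was 57.3, 20.7 and 50.7 at day 10 and 1788, 1247 and 1631 at day 17, a rise of 4.79 ± 0.30 (adjusted p = 4.90e-07). POU3F3 (BRN1), a POU homeodomain factor of cortical progenitors and upper layer neurons, rose with it, from 140.3, 50.9 and 99.1 to 1954, 1625 and 1355, by 3.95 ± 0.35 (adjusted p = 1.22e-05). For both genes every ES, day 6 and untreated day 10 array lay below the lowest untreated day 17 array, and on the ES and day 6 arrays PANTR1 was at 5.21 to 27.4 and 10.6 to 24.3. The 250 bases before the start of PANTR1 are shown because PANTR1 had the largest rise beside a neighbour that rose with it, and because they hold a match to a POU-type octamer sequence. They lie on the minus strand at chr2:104851477-104851726 (RefSeq, GRCh38.p14), the capitals mark the letters ATTTGCA, and the match begins 45 bases before the start.
PANTR1 promoter: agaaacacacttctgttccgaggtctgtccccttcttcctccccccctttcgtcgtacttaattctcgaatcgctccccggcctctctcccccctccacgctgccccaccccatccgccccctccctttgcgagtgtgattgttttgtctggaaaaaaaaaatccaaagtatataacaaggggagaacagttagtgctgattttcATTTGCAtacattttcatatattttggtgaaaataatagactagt
Searched on both strands of the 250 bases before each gene's start, ATTTGCA was found before 14 of the 235 risen genes with a RefSeq promoter entry (5.96%), 4 of 89 fallen genes (4.49%) and 456 of all 15384 tested genes with an entry (2.96%). These letters are not in this window of POU3F3, DLX1, DLX2, NR2E1 or NKX2-1.

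Genes of the ventral forebrain and the GABA lineage were among those that rose most. Of 17 measured members of this list, 6 rose (35.3%, against 1.5% of all genes: DLX1, DLX2, NKX2-1, LHX8, SLC32A1 and LHX6) and 0 fell. The list's median change was 0.95 against -0.01 for all genes. DLX2 was at 2.09, 84.9 and 49.6 at day 10, lowest in pool 1, and at 678, 812 and 839 at day 17, a rise of 4.0 ± 0.50 (adjusted p = 2.92e-04). NKX2-1, the factor that specifies the medial ganglionic eminence and ventral hypothalamus, was at 2.12, 3.13 and 2.22 and then 194, 64.3 and 133, a rise of 2.88 ± 0.28 (adjusted p = 2.46e-05). Its day 10 arrays were near the bottom of the scale and its day 17 arrays differed among themselves, with pool 2 lowest. LHX8, a factor of the same territory that specifies cholinergic neurons, rose from 12.6, 1.59 and 3.00 to 86.3, 71.9 and 92.2, and SLC32A1, the vesicular GABA transporter, from 6.36, 8.25 and 2.12 to 32.8, 65.8 and 72.8. LHX6, a factor of interneurons leaving that territory, changed by 1.63 ± 0.39, with pool 3 at day 10 close to its day 17 values. Without pool 2, SLC32A1 and LHX6 were not called (adjusted p = 0.102 and 0.275). The enzymes that make GABA had values that overlapped between the days: GAD1 was at 35.0 to 41.2 and then 5.53 to 56.6, and GAD2 at 21.7 to 105 and 41.8 to 143. DLX6-AS1 (EVF2), an antisense RNA of the DLX5 and DLX6 locus, named here after its values were seen, rose from 30.3, 6.60 and 19.9 to 478, 788 and 406, by 4.04 ± 0.29 (adjusted p = 1.17e-06). Of the coding genes there, DLX5 changed by 1.49 ± 0.44 (adjusted p = 0.118, 0.0489 with the replicate block) and DLX6 by 0.46 ± 0.28 (adjusted p = 0.686).

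Among genes of the dorsal telencephalon and cortical neurons, 6 of 20 measured members rose (EMX2, SLC17A6, NFIB, RELN, EOMES and TBR1) and 0 fell. The risen share was 30.0%, against 1.5% of all genes, with a list median of 0.57. Without pool 2 the count was 7 rising. EMX2, a homeodomain factor that patterns the cortex, had signals from 82.5 to 267 at day 10 and of 1393, 940.1 and 1536 at day 17, a rise of 3.11 ± 0.39 (adjusted p = 3.49e-04). Pool 1 was highest at day 10, and no day 10 array reached the lowest day 17 array. SLC17A6, the vesicular glutamate transporter of early excitatory neurons, rose from 8.91, 28.8 and 3.42 to 95.9, 160.2 and 82.3. EOMES (TBR2), the factor of intermediate progenitors, rose from 37.0, 67.1 and 40.1 to 272, 184 and 112, and TBR1, a factor of deep layer cortical neurons, from 5.28, 30.0 and 9.47 to 50.6, 59.8 and 63.2. RELN, the secreted protein of Cajal-Retzius neurons, rose from 102, 135 and 44.5 to 348, 484 and 193. The proneural factors of the cortex did not join them in this test: NEUROG2 was at 4.67 to 9.24 at day 10 and 2.22 to 9.61 at day 17, and NEUROG1 at 11.9 to 45.9 and 8.06 to 48.4. So genes of the ventral and of the dorsal forebrain rose in the same RNA pools.

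EMX2 is shown with its promoter because its antisense neighbour EMX2OS also rose, by 2.15 ± 0.42 (adjusted p = 0.0119, 0.0534 without pool 2). The 250 bases lie on the plus strand at chr10:117542496-117542745 (RefSeq, GRCh38.p14), and the capitals mark a TAATTA match, the core letters bound by many homeodomain factors, which begins 30 bases before the start.
EMX2 promoter: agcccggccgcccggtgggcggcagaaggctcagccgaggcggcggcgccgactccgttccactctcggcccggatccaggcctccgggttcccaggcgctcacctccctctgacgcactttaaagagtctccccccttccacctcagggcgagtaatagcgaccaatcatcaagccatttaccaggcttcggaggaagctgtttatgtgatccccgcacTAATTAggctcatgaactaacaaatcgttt
On both strands TAATTA was found before 10 of 235 risen genes (4.26%), 3 of 89 fallen genes (3.37%) and 441 of 15384 tested genes (2.87%), and a match is a description of letters, not of a bound site.

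**Figure D3:**
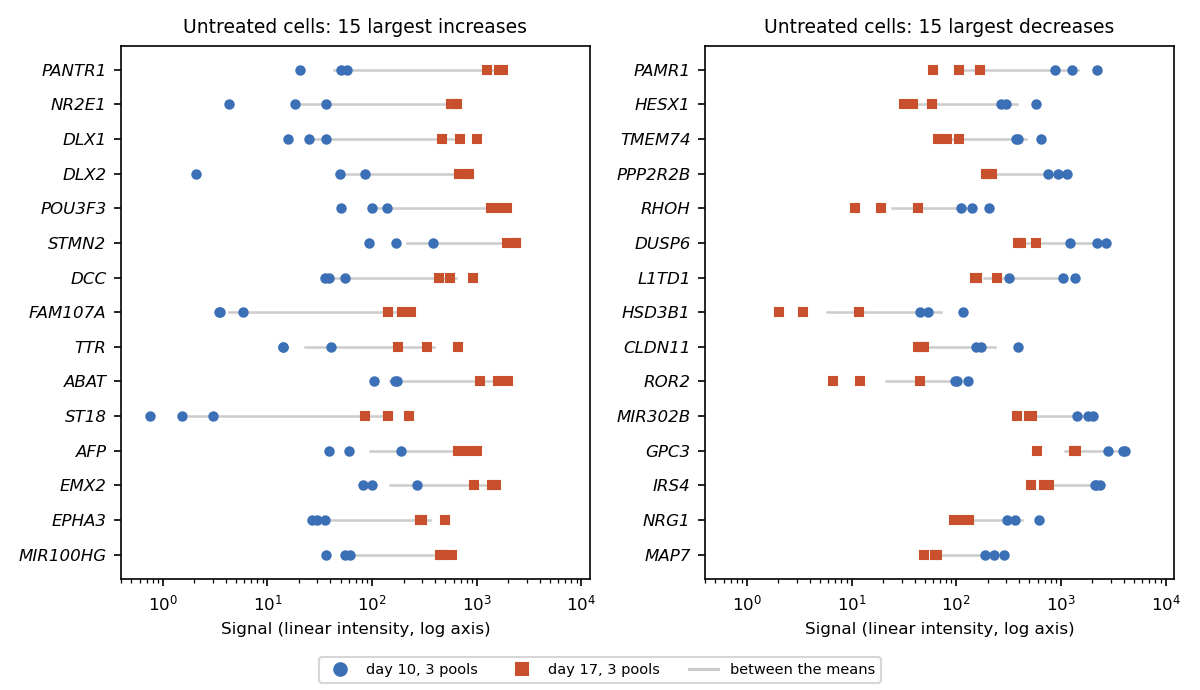
Linear signal (log axis) on each untreated day 10 array (blue circles) and day 17 array (orange squares) for the 15 largest increases and the 15 largest decreases among the called genes with standard names, antisense genes left out; the grey line joins the group means. The day 10 and day 17 points do not overlap in any row, and the nearest approach is that of L1TD1, at 322 in pool 3 at day 10 and 244 in pool 3 at day 17.

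Of 30 measured factors of neuronal commitment 9 rose (30.0%, against 1.5% of all genes) and 0 fell, with a list median of 0.80. Without pool 2 the count was 7 rising. ST18, a zinc finger factor of the MYT family, was at 1.52, 3.01 and 0.754 at day 10 and 142, 225 and 84.6 at day 17, a rise of 3.14 ± 0.29 (adjusted p = 1.67e-05). Its relatives MYT1L and MYT1 rose by 1.37 and 1.34, and neither was called without pool 2 (adjusted p = 0.084 and 0.0804). INSM1 and INSM2, zinc finger factors of newly born neurons and neuroendocrine cells, rose by 2.63 ± 0.33 and 2.53 ± 0.31, INSM1 from 78.0, 43.2 and 31.9 to 460.2, 286 and 424. NHLH1 and NHLH2, helix-loop-helix factors of early neurons, rose by 2.18 and 1.67. Of the Notch pathway, which holds progenitors back from becoming neurons, 1 of 24 members rose (4.17%, against 1.5% of all genes). This was HEY1, a Notch target, which went from 258, 320.4 and 265 to 800.4, 1148 and 924 (adjusted p = 0.001). With the replicate block 5 Notch members rose and 1, HES1, fell, where it called 3.09% of all genes rising and 1.36% falling. HES1 was at 1213 to 3171 at day 10 and 606 to 1707 at day 17 (adjusted p = 0.644, 0.0316 with the block), and the ligand DLL1 at 519.7 to 1313 and 860.2 to 1676.

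The neuronal cytoskeleton and RNA-binding genes had the largest number of increases of the 35 lists. Of 33 measured members 12 rose (36.4%, against 1.5% of all genes) and 0 fell, and the median was 0.89. For 31 members the estimate was above 0, where 9551 of all 19775 genes had such an estimate. Without pool 2 the count was 10 rising. Beside STMN2, its relatives STMN3 and STMN4 rose by 1.74 ± 0.26 and 1.55 ± 0.23. ELAVL3 and ELAVL4, neuronal RNA-binding proteins that stabilise transcripts, rose by 2.59 ± 0.32 and 2.50 ± 0.36, ELAVL4 from 99.2, 125 and 38.9 to 419.8, 882 and 392. GAP43, a growth cone protein, rose from 152, 122 and 105 to 876, 511 and 590.1 (adjusted p = 1.93e-04). DCX, the microtubule protein of migrating neurons, rose from 573, 399 and 608 to 2240.0, 2802 and 1519.9, by 2.00 ± 0.33 (adjusted p = 0.00315, 0.0803 without pool 2). The neurofilament light chain NEFL rose from 296, 209 and 247 to 1121, 943 and 858, and the 3 pools of each day lay close together. TUBB3, the tubulin used to mark neurons, was already high at day 10, at 4564, 2263 and 5742, and was at 7346, 4006 and 8442 at day 17. Its change of 0.69 ± 0.40 passed only with the replicate block (adjusted p = 0.672 without it, 0.0371 with it), and in each pool the day 17 array was the higher.

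Axon guidance and adhesion genes followed, with 10 of 35 members rising (28.6%, against 1.5% of all genes), 0 falling and a median of 0.45. Without pool 2 this list had 8 rising. DCC, the netrin receptor of growing axons, was at 54.6, 35.4 and 38.7 at day 10 and 557, 924 and 440.5 at day 17, a rise of 3.42 ± 0.28 (adjusted p = 7.87e-06). EPHA3, a receptor for ephrin ligands, rose from 29.6, 35.2 and 26.9 to 300.3, 497 and 287. The repellent ligands SLIT2 and SLIT1 rose by 1.88 and 0.84, SLIT1 with an adjusted p of 0.0495 (0.156 without pool 2). ROBO3 and ROBO2, receptors of the ROBO family, rose by 1.65 and 1.4. ROBO1 was at 1215 to 2203 at day 10 and 813 to 1146 at day 17 (adjusted p = 0.374). The contactins CNTN1 and CNTN2, the adhesion molecule L1CAM and the guidance ligand SEMA3C also rose, by 1.2, 1.99, 2.06 and 1.36.

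Of 31 measured synapse and vesicle genes 2 rose (SCN3A and RIMS1, 6.45% against 1.5% of all genes) and 1 fell (NLGN1, 3.23% against 0.541%). The median was 0.25. The replicate block called 8 rising and 2 falling, where it called 3.09% and 1.36% of all genes. Without pool 2 the count was 4 rising and 0 falling. SCN3A, a sodium channel subunit of the embryonic brain, rose from 18.4, 1.58 and 1.29 to 108, 111 and 64.5. NLGN1, a postsynaptic adhesion protein, fell from 439.6, 494 and 421 to 248, 280.1 and 275 (adjusted p = 0.0432, 0.225 without pool 2). SNAP25 was at 18.5 to 130.3 and 82.2 to 124, SYT1 at 415 to 559 and 562 to 664, and SYN1 at 23.1 to 63.7 and 17.8 to 30.7. Of 23 receptors for GABA and glutamate, GRIA2 and GRIK3 (8.7%, against 1.5% of all genes) rose, by 1.26 and 1.55. Neither was called without pool 2 (adjusted p = 0.0692 and 0.128). ABAT, the enzyme that breaks GABA down, was on no list and rose from 172, 166 and 105 to 1582, 2004 and 1063, by 3.24 ± 0.31 (adjusted p = 2.46e-05).

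Progenitor genes did not all move one way. Of 29 measured members of the radial glia and neural progenitor list 5 rose (NR2E1, POU3F3, TNC, SOX1 and SOX3) and 1 fell (LIN28A). These shares were 17.2% and 3.45%, against 1.5% and 0.541% of all genes, and the median was 0.26. The replicate block called 7 rising and 3 falling, where it called 3.09% and 1.36% of all genes. Without pool 2 the count was 2 rising and 0 falling. SOX1 rose from 736, 401 and 699 to 1777, 1144 and 1733 (adjusted p = 0.0312), and SOX3, of the same family, from 635, 550.5 and 1229 to 1703, 1595 and 2423 (adjusted p = 0.0461). SOX2 was at 8529.5, 8776 and 11094 and then 6151, 6969 and 6654, lower on every day 17 array but not called (adjusted p = 0.201). The intermediate filament genes NES and VIM overlapped between the days, as did FABP7, at 4119 to 8796 and 4926 to 7162. FAM107A, an actin-binding protein known from outer radial glia, was on no list and rose from 3.53, 3.42 and 5.89 to 192, 142 and 233, by 3.32 ± 0.28 (adjusted p = 1.07e-05). Of 19 glial genes 3 rose (15.8%, against 1.5% of all genes). They were OLIG1, an oligodendrocyte lineage factor, by 1.77, the glutamate transporter SLC1A2 by 1.45 and the helix-loop-helix inhibitor ID4 by 1.38. Without pool 2, OLIG1 alone of these 3 was called, and ID4 was at an adjusted p of 0.0542.

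**Figure D4:**
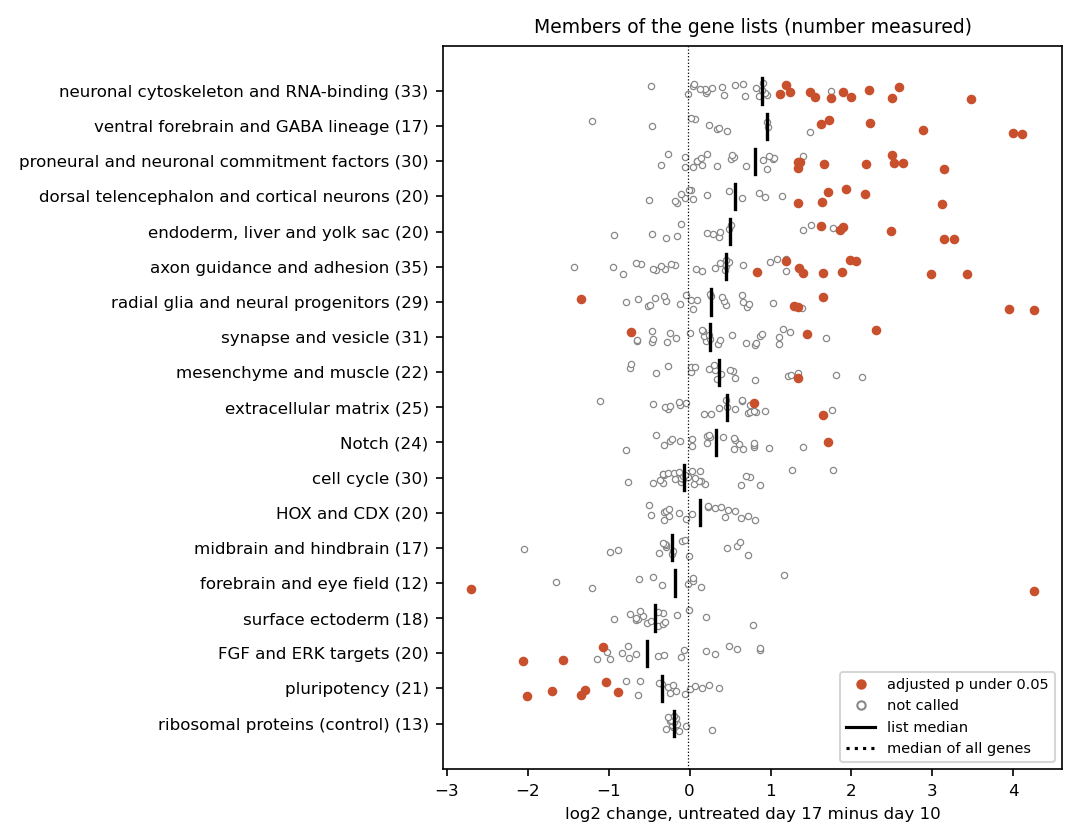
Change of every measured member of 19 of the 35 gene lists (horizontal axis, log2 of signal plus 16, untreated day 17 minus day 10); orange points passed an adjusted p under 0.05, open points did not, black bars are list medians and the dotted line is the median of all genes. The bars of the neuronal, ventral forebrain and proneural lists lie between 0.80 and 0.95, and those of the pluripotency and FGF lists at -0.34 and -0.53.

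HESX1, a homeodomain repressor of the anterior neural plate and pituitary, fell while these genes rose. It was at 576, 301 and 267 at day 10 and 58.7, 38.9 and 31.6 at day 17, a fall of 2.70 on the log2 scale (SE 0.32, adjusted p = 2.27e-04). Its highest level was at day 6, at 2712, 2545 and 3074. In the forebrain and eye field list, HESX1 fell and NR2E1 rose among 12 measured members (8.33% each, against 0.541% and 1.5% of all genes). The replicate block added falls of SIX3 and RAX, factors of the eye field. SIX3 was at 2399.6, 2685 and 2895 and then 1088, 1236 and 1108 (adjusted p = 0.0757, 0.00533 with the block), and RAX at 111, 113 and 144 and 6.45, 60.3 and 33.7 (adjusted p = 0.152, 0.025). LHX2 and OTX2, factors of the whole forebrain, overlapped between the days. FGF8, the ligand of the anterior ridge and of the midbrain-hindbrain border, was at 181, 72.4 and 186 at day 10 and 26.6, 9.16 and 30.5 at day 17 (adjusted p = 0.0616, 0.00282 with the block). No gene of the midbrain and hindbrain list or of the HOX and CDX list, which mark the hindbrain and spinal cord, was called in the test without the block. These lists held 17 and 20 measured genes, and 0 calls in them is near the background of 2.04% of all genes. The 20 measured HOX and CDX genes summed to a signal of 358 to 984 at day 10 and 352 to 823 at day 17.

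The largest fall was that of PAMR1, a secreted protein with a serine protease-like domain, from 1268, 882 and 2217 to 106, 59.6 and 167, by 3.52 on the log2 scale (SE 0.41, adjusted p = 1.94e-04). PPP2R2B, a regulatory subunit of protein phosphatase 2A in brain, fell from 942, 754 and 1151 to 222, 202 and 192 with little spread between pools (adjusted p = 3.76e-05). TMEM74, a transmembrane protein linked to autophagy, fell from 374, 392 and 641 to 81.7, 67.4 and 106. GPC3, a cell surface proteoglycan that binds growth factors, fell from 4134, 2831 and 3951 to 1339, 587 and 1392, and pool 2 was lowest on both days. IRS4, an adaptor of insulin signalling, and NRG1, a ligand of ERBB receptors, fell by 1.74 and 1.73. ROR2, a receptor for WNT5A, fell from 129.8, 101 and 97.7 to 45.2, 6.71 and 12. HSD3B1, a steroid dehydrogenase, fell from 115, 53.2 and 45.4 to 2.02, 3.46 and 11.9. CLDN11, a tight junction protein, fell from 171, 153 and 387 to 47.2, 49.6 and 43.4 (adjusted p = 0.0319, 0.0863 without pool 2). The remaining genes among the 15 largest falls (RHOH and MAP7) fell by 2.09 and 1.72. Leaving out 1 array at a time kept 13 of these 15 falls and all 15 of the largest rises, while L1TD1 and CLDN11 lost the call in at least 1 case.

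Of 20 measured FGF and ERK targets 3 fell (DUSP6, SPRY1 and IL17RD) and 0 rose, with a median of -0.53, and with the replicate block 7 fell and 2 rose. DUSP6, the phosphatase that switches off ERK, was at 2219.8, 1208 and 2685 at day 10 and 413, 386 and 581 at day 17, a fall of 2.06 on the log2 scale (SE 0.36, adjusted p = 0.00571). SPRY1, an inhibitor of receptor tyrosine kinase signalling, fell from 859, 746 and 1152 to 364, 221 and 321, and IL17RD (SEF), a membrane inhibitor of the same pathway, from 2775, 2854 and 2251 to 1487, 1223 and 1024. SPRY2 was at 1739, 931 and 1808 and 641, 519 and 783 (adjusted p = 0.0566, 0.00441 with the block), and the ETS factor ETV5 at 536, 307 and 813 and 292, 164 and 300.1 (adjusted p = 0.318, 0.0123). On the ES and day 6 arrays DUSP6 was at 260.5 to 368 and 244 to 456.

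Of 21 measured pluripotency genes 6 fell (L1TD1, ZFP42, LIN28A, DNMT3B, TRIM71 and DPPA4) and 0 rose, with a median of -0.34. The fallen share was 28.6%, against 0.541% of all genes, and without pool 2 the count was 2. ZFP42 (REX1), a zinc finger factor of ES cells, was at 616, 737 and 788 on the ES arrays, 38.4, 52.8 and 47.6 at day 10 and 2.74, 3.20 and 3.36 at day 17 (adjusted p = 0.00132). DNMT3B, the de novo DNA methyltransferase of the early embryo, fell from 1385, 1147 and 1165 to 536, 447 and 501 with no overlap and little spread. L1TD1, an RNA-binding protein of stem cells, was at 1369, 1038 and 322 and then 159, 152 and 244, and its pool 3 array at day 10 lay nearer to day 17 than the others (adjusted p = 0.0447, 0.335 without pool 2). LIN28A, the RNA-binding protein that blocks maturation of let-7 miRNAs, fell from 7166, 8441 and 9022 to 3349.9, 2259.6 and 4341. Its fall was 1.35 on the log2 scale (SE 0.24, adjusted p = 0.00675, 0.0848 without pool 2). Its relative LIN28B was at 3597, 3818 and 4904 and 2442, 2460.3 and 2932 (adjusted p = 0.103, 0.0489 with the block), and NANOG overlapped between the days. TRIM71 (LIN41), a target of let-7 in other systems, fell from 4215, 4789 and 3423 to 2044, 1928 and 2036. HMGA2, a chromatin protein and also a known let-7 target, was at 5529.6 to 6029.7 and 5626 to 6614 (change 0.10 ± 0.17).

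Long RNAs that host miRNAs changed on both sides. Of 53 measured genes named as miRNAs or miRNA hosts 4 rose (7.55%, against 1.5% of all genes) and 1 fell (1.89%, against 0.541%). The arrays measured RNA annotated to these genes and not the mature miRNAs. The mature sequences are shown because the rising hosts carry miRNAs whose 5p arms share seeds between the hosts, and the falling gene belongs to a cluster in which the 3p arms of the miR-302 members share 1 seed. They are RefSeq entries (GRCh38.p14), 5′ to 3′, and the capitals mark the seed, bases 2 to 8. MIR302B fell from 2027, 1806 and 1422 to 529, 376 and 495, by 1.87 on the log2 scale (SE 0.22, adjusted p = 1.94e-04), after levels of 11887 to 14279 on the ES arrays and 12771 to 15449.8 at day 6. The miR-302 family is abundant in ES cells, and the 3p arms of its members at this chromosome 4 cluster share the seed AAGUGCU.
miR-302a-3p: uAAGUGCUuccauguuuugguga
miR-302b-3p: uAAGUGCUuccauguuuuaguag
miR-302c-3p: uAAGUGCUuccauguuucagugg
miR-302d-3p: uAAGUGCUuccauguuugagugu
MIR100HG, the host on chromosome 11 of miR-100, let-7a-2 and miR-125b-1, rose from 55.2, 36.1 and 62.2 to 475, 449 and 576, by 2.96 ± 0.38 (adjusted p = 3.87e-04). MIR99AHG, the host on chromosome 21 of miR-99a, let-7c and miR-125b-2, rose from 34.5, 27.1 and 19.5 to 96.2, 171 and 70.9, by 1.52 ± 0.29 (adjusted p = 0.00878). The 5p arms of these hosts' miRNAs fall into 3 seed groups, seen in the capitals, and miR-125b-5p has the same sequence from both hosts.
miR-100-5p: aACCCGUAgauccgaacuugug
miR-99a-5p: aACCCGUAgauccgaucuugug
let-7a-5p: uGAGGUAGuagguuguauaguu
let-7c-5p: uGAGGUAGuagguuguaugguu
miR-125b-5p: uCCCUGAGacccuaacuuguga
MIR9-1HG on chromosome 1 and MIR9-3HG on chromosome 15 rose by 1.49 ± 0.23 and 1.27 ± 0.31 (adjusted p = 0.00173 and 0.0447). MIR9-1HG went from 121, 80.5 and 72.6 to 286, 203 and 372, and MIR9-3HG from 2.89, 4.14 and 4.12 to 38.9, 11.4 and 54.8, with pool 2 lowest at day 17 for both. They host miR-9, a miRNA of neural progenitors and neurons.
miR-9-5p: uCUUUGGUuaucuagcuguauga
LIN28A thus fell over the interval in which the hosts of let-7a and let-7c, which share the seed GAGGUAG, rose. The fall of LIN28A was not called without pool 2, and maturation of let-7 was not measured.

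Retinoic acid and Wnt genes were called in both directions. In the retinoic acid list 2 of 13 members rose (15.4%, against 1.5% of all genes) and 2 fell (15.4%, against 0.541%): RDH10, which makes retinal, rose from 73.3, 71.7 and 52.5 to 204, 177 and 206, RBP4, the plasma retinol carrier, rose by 2.56, CYP26A1, which degrades retinoic acid, fell from 239.7, 261 and 328 to 82.3, 86.0 and 107, and RARB, a receptor and target, fell by 1.32. In the Wnt list 3 of 24 members rose (12.5%, against 1.5% of all genes: LGR5, NKD1 and DKK3) and 1 fell (4.17%, against 0.541%). FZD5, a receptor of the anterior neural plate, fell from 8641, 7454 and 11138 to 4508, 4463 and 4529.5. Without pool 2 none of these Wnt genes was called, with an adjusted p of 0.0692 for LGR5, 0.0767 for NKD1, 0.102 for DKK3 and 0.0717 for FZD5. ZIC1, a patterning gene of the dorsal neural tube, rose from 2006, 528 and 1033 to 6247, 4119 and 3893 (adjusted p = 0.0301, 0.0761 without pool 2), and ZIC2 was at 3393, 2474 and 4139.9 and 1764, 996 and 1832 (adjusted p = 0.0618, 0.00249 with the block). No hedgehog member among 15 was called, which is near the background of 2.04% of all genes. The ligand SHH was at 14.7 to 17.7 and 9.44 to 31.6. Of 17 BMP targets 1 rose, ID4 (5.88%, against 1.5% of all genes), and BMP7, on the dorsal neural tube list, rose by 0.95.

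Of 30 cell cycle genes 0 were called by limma, with a median of -0.07. The replicate block called 3 rising and 1 falling, where it called 3.09% and 1.36% of all genes. At a background of 2.04% of all genes, a count of 0 in a list of this size is near the background and shows nothing particular to the list. CDKN1C (p57), an inhibitor that arrests neural precursors, was at 404, 334 and 843 and 1732, 1192 and 2350.5 (adjusted p = 0.0532, 9.51e-04 with the block). MKI67 was at 437, 336 and 121 at day 10 and 489, 371 and 400.4 at day 17, and TOP2A at 1350.3 to 2969 and 2199 to 2932, so the days overlapped for both markers of cycling cells. Other lists with 0 calls by limma were the p53 targets (12 genes, median 0.39), cholesterol synthesis (14, median 0.13), ribosomal proteins (13, median -0.20), neural crest (14, median -0.14) and surface ectoderm (18, median -0.43). Estimates were above 0 for 12, 11, 1, 4 and 2 genes of these lists, and for 9551 of all 19775 genes. At an unadjusted p under 0.05 these lists held 3, 1, 0, 4 and 3 genes, the cell cycle list 4, the midbrain and hindbrain list 4, the HOX and CDX list 1 and the hedgehog list 2, where 9.74% of all genes passed that threshold. The replicate block called 2 p53 targets, 3 surface ectoderm genes and 2 midbrain and hindbrain genes, where it called 4.45% of all genes. In the hypoxia list P4HA2 rose by 0.86 and ADM fell by 0.95, of 19 members (5.26% each, against 1.5% and 0.541% of all genes).

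Genes of cells outside the nervous system moved with the day as well. Of 20 measured genes of endoderm, liver and yolk sac 6 rose (TTR, AFP, APOA2, FGA, APOB and FGG) and 0 fell, with a median of 0.50. The risen share was 30.0%, against 1.5% of all genes, and the count without pool 2 was also 6. AFP, the fetal serum protein of yolk sac and liver, was at 59.6, 189 and 38.9 at day 10, highest in pool 2, and at 659, 834 and 997 at day 17, a rise of 3.14 ± 0.38 (adjusted p = 2.24e-04). APOA2, an apolipoprotein of liver and yolk sac, rose from 35.2, 176 and 89.2 to 562, 334 and 896, and APOB from 46.3, 44.6 and 19.1 to 135, 110.5 and 312. TTR, the thyroxine carrier made by liver, yolk sac and choroid plexus, rose from 14.1, 14 and 40.2 to 335, 176 and 657 (adjusted p = 0.00632). The summed signal of the 20 genes was 915 to 1447 at day 10 and 2875 to 4316 at day 17. The endoderm factors FOXA2 and SOX17 overlapped between the days: FOXA2 was at 1.82 to 38.6 and 4.99 to 18.6, and SOX17 at 21.7 to 46.9 and 34.1 to 64.8. The liver product ALB was at 7.77 to 37.6 and 8.54 to 40.3. Of the 16 choroid plexus genes TTR and HTR2C, a serotonin receptor of that tissue, rose (12.5%, against 1.5% of all genes). HTR2C went from 103, 72.8 and 112 to 431, 459 and 488.

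Of 22 genes of mesenchyme and muscle 1 rose (4.55%, against 1.5% of all genes). This was COL1A1, a fibrillar collagen, from 1620.5, 2642 and 1359 to 4581, 3911 and 5416, and the replicate block added COL3A1, DCN and PRRX1. COL3A1 was at 595, 1235 and 458 and 2639, 3938 and 2865 (adjusted p = 0.0928, 9.52e-04 with the block). The summed signal of this list was 11825 to 15145 at day 10 and 17591 to 26383 at day 17. In the extracellular matrix list 2 of 25 members (8.0%, against 1.5% of all genes) rose, TNC and SPARC. With the block 5 rose, where it called 3.09% of all genes rising. Of 15 genes of endothelium and blood none was called and 0 had an unadjusted p under 0.05, where 2.04% and 9.74% of all genes did. Their summed signal was 432 to 930 at day 10 and 455 to 797 at day 17. Among 14 trophoblast genes 1 fell (7.14%, against 0.541% of all genes). This was CGA, the alpha chain of glycoprotein hormones, from 48.1, 41.0 and 41.1 to 1.02, 3.74 and 14.2. Among 20 genes of retina and lens 1 rose (5.0%, against 1.5% of all genes). This was CRYAB, a small heat shock protein, from 56.7, 153 and 92.5 to 274, 378 and 556. The part of such cells in the changes of neural genes was not tested.

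The stages before day 10, measured on arrays outside the comparison, give the earlier levels of these genes. Of the 296 risen genes 239 (80.7%) were higher on every day 17 array than on every ES and day 6 array, against 12.7% of all genes, though choosing genes for high day 17 values favours this pattern. Of the 107 fallen genes 34 had their highest mean at the ES stage, 28 at day 6 and 45 at day 10. Genes of the first kind included L1TD1 and DNMT3B, the second HESX1, LIN28A and MIR302B, and the third DUSP6, SPRY1 and IRS4. The ES and day 6 arrays of MIR302B overlapped. IRS4 was at 166 to 335 on the ES arrays, 1139 to 1380.3 at day 6, 2108 to 2366 at day 10 and 513 to 776 at day 17, a rise and fall within the series. CNTN1 and GAP43 ran the other way: they were at 207 to 290.5 and 352 to 598 on the ES arrays, above their day 10 arrays, which were at 10.7 to 27.9 and 105 to 152.

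Cells grown with bFGF passed the same interval on 6 other arrays, and 209 genes (1.06%) changed there, 132 rising (0.668%) and 77 falling (0.389%). Both comparisons called 137 genes, which is 34.0% of the 403 and 65.6% of the 209, and all 137 had the same sign. Of the 296 genes that rose in untreated cells 282 (95.3%) had an estimate above 0 under bFGF, where 48.8% of all genes did, and their median there was 0.85 against 1.4 in the comparison that chose them. Of the 107 that fell 98 (91.6%) had an estimate below 0, where 51.2% of all genes did, with a median of -0.81 against -1.22. Selection favours the comparison that chose the genes: the 132 genes that rose under bFGF had a median of 1.54 there and 1.47 in untreated cells, and the 77 that fell had -1.28 and -0.97. With the replicate block 420 genes were called under bFGF, and without pool 2 it was 113. Leaving out 1 array gave 117 genes without day 10 pool 1, 126 without day 10 pool 2, 127 without day 10 pool 3 and 120 without day 17 pool 3.

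Some forebrain and neuronal genes rose under both conditions. PANTR1 rose under bFGF by 3.19 ± 0.30, POU3F3 by 3.32 ± 0.35, STMN2 by 2.89 ± 0.35, EMX2 by 2.57 ± 0.39 and NR2E1 by 2.47 ± 0.30. NEFL rose there by 3.02 ± 0.20, against 1.90 ± 0.20 in untreated cells. DLX1 was at 202, 122 and 72.8 on the bFGF day 10 arrays and 631, 285 and 189 on those of day 17, a difference of 1.30 ± 0.46 (adjusted p = 0.347), and the difference for DLX2 was 1.38 ± 0.50 (adjusted p = 0.362). Of the 17 ventral forebrain genes 1 rose under bFGF, NKX2-1, by 2.06 ± 0.28, and of the 20 dorsal telencephalic genes 7 rose. Of all genes 0.668% rose there. At an unadjusted limma p under 0.05 the 2 lists were nearly alike under bFGF, with 8 and 9 genes, where 7.36% of all genes passed. The difference of the day change, untreated minus bFGF, was 2.81 ± 0.66 for DLX1 (adjusted p = 0.672), and so was not called.

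Endoderm and FGF target genes had day changes in untreated cells that were not called under bFGF. AFP was at 44.2, 112 and 87.9 and then 117, 143 and 122 under bFGF, a day difference of 0.62 ± 0.38, and the difference from untreated cells was 2.52 ± 0.53 (adjusted p = 0.619). The summed signal of the 20 endoderm, liver and yolk sac genes was 930 to 1404 at day 10 and 1482 to 1906 at day 17 under bFGF, and 0 of them were called by limma, with 4 at an unadjusted p under 0.05, which 7.36% of all genes passed. DUSP6 was at 3384, 1775 and 4663 and 4082, 2397 and 3642 under bFGF, a day difference of 0.11 ± 0.36, and the list of 20 FGF and ERK targets had 0 calls by limma, 5 members at an unadjusted p under 0.05 and a median of 0.12. SPRY1 was at 1019, 858 and 1478 and 1522, 1477 and 1922, with a difference of -2.14 ± 0.36 (adjusted p = 0.427). Over all genes the day change differed between the conditions for 0 genes (0%) by limma, with 633 genes (3.2%) at an unadjusted p under 0.05 and a lowest adjusted p of 0.427. Under single alternatives 1 gene was called: NR2E1 with a pseudocount of 64 (adjusted p = 0.0167), SPRY1 with the pool as a random block (0.00797) or with the pool 2 arrays as a term (0.0378), and AFP without the day 10 array of pool 2 (0.0176).

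**Figure D5:**
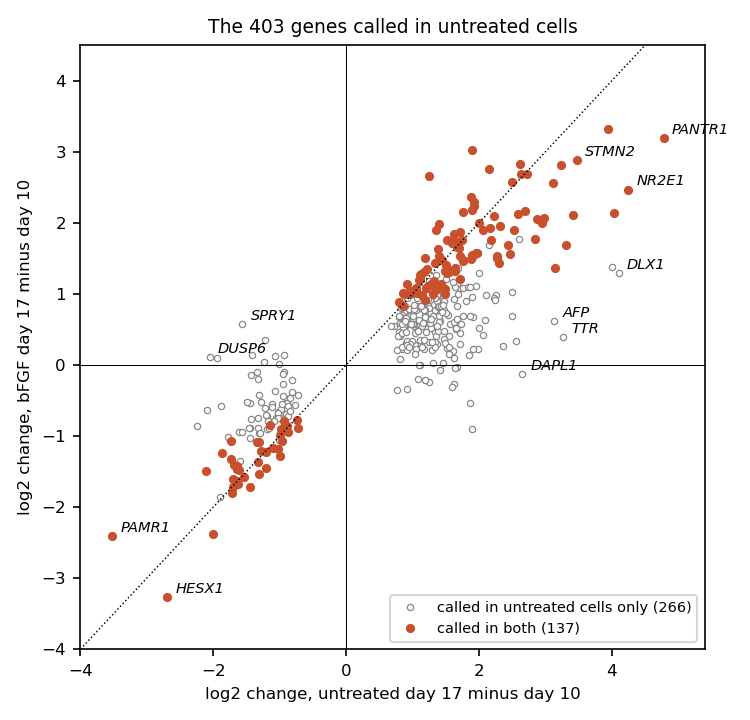
Day change under bFGF (vertical axis) against day change in untreated cells (horizontal axis), both as log2 of signal plus 16, day 17 minus day 10, for the 403 genes called in untreated cells; orange points were called in both comparisons (137), open points in untreated cells only (266), and the dotted line marks equal change. PANTR1, NR2E1, STMN2, PAMR1 and HESX1 moved the same way under both, while DUSP6 at 0.11, TTR at 0.39 and AFP at 0.62 lie near 0 on the vertical axis.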

How the data were processed

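Total RNA pools of H9 cells were measured on 1-colour arrays with 54675 probe sets. The values the authors deposited are linear signal intensities, 1 for each probe set on an array, scaled to nearly the same trimmed mean, and the software is not given in the sources used here. Groups and pool numbers came from the labels, but 1 day 10 bFGF array is pool 2 by its title and pool 1 by its description (the title was used), and 1 ES array has no pool number and was numbered 1. The 41097 probe sets that the platform annotation of 2016 ties to 1 gene were kept, 1801 with several genes and 11777 without a name were left out, and each gene took its probe set with the highest mean, which gave 19775 genes. Comparisons used limma 3.58.1 in R 4.3.3 on log2(signal + 16): lmFit with 1 mean per group over 18 arrays and 12 residual degrees of freedom, eBayes, and Benjamini-Hochberg adjustment over all genes. The number of arrays limits the precision. On simulated data with 19775 genes the fit called 42 of 100 genes changed by 1 log2 unit, 89 of 100 changed by 2, and 12 unchanged genes. The changed genes were drawn from the upper 60% by mean signal. The simulated noise was normal and independent between arrays, without shared pool deviations or the raised low signals of pool 2. These rates therefore do not cover weak genes or those features of the real arrays.

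Same-numbered pools deviated together across the days (r = 0.37, 0.625 and 0.407, against at most 0.15 for different numbers, across genes), so the pool was used as a replicate block in an alternative. These deviations are from means of 3 arrays, which lowers r between different numbers. Pool 2 with another pool gave -0.466 to -0.369, and pools 1 and 3 gave 0.15 and 0.136. Other alternatives changed the pseudocount, normalization, filter, probe set rule, variance model and arrays. The 35 gene lists, with 639 of 711 genes measured, describe groups by counts and medians, and 56 genes are in several lists. The text names the 15 largest changes each way, antisense names left out, and up to 4 members of a list with the largest changes. Other list members were named for their known roles after their values were seen. The comparison, its marker genes and the lists were chosen with earlier results of these data known. Sequences are RefSeq entries.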

Additional observations from a re-analysis of the deposited data

How the results depend on the processing

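Counts of calls changed with the settings, while of 144 genes named by rule none reversed under any alternative run. Of the 272 called genes with several probe sets, 130 were still called when these were averaged, and 270 kept their sign. In untreated cells the 403 genes became 239 with a pseudocount of 1, 37 in a fit of the compared groups alone, 879 with the pool as a fixed replicate block, 772 with it as a random replicate block, 230 without pool 2 and 659 with a term for the pool 2 arrays. Counts under a pseudocount of 64, quantile normalization, the filter, the mean of probe sets and eBayes with trend and robust lay between 306 and 555, and leaving out 1 array gave 212 to 322. Under bFGF the 209 genes became 113, 6, 420, 453, 113 and 364 in that order of settings, and 117 to 150 without 1 array. The count of 0 genes with unequal day change became 1 with a pseudocount of 64, with the random replicate block and with the term for pool 2, and lay between 0 and 1 without 1 array. The replicate block ended the call of 0 of the 73 named genes called and added 29. The mean of probe sets ended 15, leaving out pool 2 ended 19 and a pseudocount of 1 ended 19. The fit of the compared groups alone, which does not use the spread of the other arrays, ended 50. Of 595 list medians recomputed, 26 moved by more than the spread between arrays. Of the 403 genes, 154 were called whichever untreated array was left out. The cause of these shifts was not tested. Low signals were raised in pool 2, which limits what can be read from weak genes.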

Other observations

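Some genes next to each other on a chromosome were called together. Among 19731 tested genes placed on the current RefSeq assembly, 22 adjacent pairs were both called, of which 15 pairs rose, 3 fell and 4 moved in opposite directions. Of the 296 risen genes 29 (9.8%) had a risen neighbour, against 584 (2.96%) of all placed genes. Besides PANTR1 with POU3F3, DLX1 with DLX2 and EMX2 with EMX2OS, the pairs that rose included NKX2-1 with SFTA3, a lung and thyroid gene of the same locus (2.88 and 2.48 on the log2 scale), LHX8 with SLC44A5, a choline transporter-like gene (2.22 and 1.92), SOX1 with its overlapping transcript SOX1-OT (1.34 and 1.44), and PRDM16 with PRDM16-DT (1.24 and 1.4). POU3F3 had a second risen neighbour, LINC01159, at 1.76. PLAGL1 and HYMAI, which share an imprinted locus on chromosome 6, rose by 1.71 and 1.63, and FGA and FGG, chains of fibrinogen on chromosome 4, by 1.9 and 1.63. STMN2 and HEY1 were also neighbours and rose by 3.47 and 1.7.

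In some pairs neighbours moved apart. The glutamate transporter SLC1A2 rose by 1.45 beside PAMR1, which had the largest fall at -3.52, and the glypican GPC4 rose by 1.35 beside its relative GPC3 at -1.78. HESX1 and IL17RD were neighbours on chromosome 3 and fell by 2.7 and 1.08. Antisense and overlapping transcripts can share probe sequence with their neighbours, and its part in these pairs was not tested.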
